A study of Mus musculus with 48 samples.

Results

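The kinesin genes of the mouse were followed in ribosome-bound RNA of hippocampal astrocytes, in the whole cell and in the fine processes next to synapses. Protein-coding genes whose symbol starts with Kif or Kifc and a digit gave 43 members of 47643 genes listed. Of these, 17 were described as transport kinesins, 12 as mitotic kinesins and 14 as others. Another 4 genes with such symbols (Kif16bos, Kif22-ps, Kif4-ps and Kifc5c-ps) are an antisense gene or pseudogenes and were left out. Kif1bp met the rule by its symbol, but encodes a protein that binds kinesins and is not itself a motor.

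All samples came from dorsal hippocampus of mice with the transgene Tg(Aldh1l1-eGFP/Rpl10a) JD130Htz, in which the Aldh1l1 promoter drives a ribosomal protein fused to eGFP. In translating ribosome affinity purification (TRAP), an antibody to GFP pulls down the tagged ribosomes with their mRNA. The group Astro is the full astrocyte and the group PAP the perisynaptic astrocytic processes, each from the same 3 animals, C1 to C3, with no treatment named. Each animal and compartment was sequenced as 8 technical replicates, which were summed to 6 libraries (n = 3 per group). The model rests on a promoter that is active mainly in astrocytes, and the protocol cleared the lysates over columns without the GFP antibody to limit unspecific binding. Age is not given in the sources used here.

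Astro libraries held 18707844 to 20293538 counts and PAP libraries 1829962 to 2980984, so that a count of 3, taken as the detection floor, stood for 0.152 to 0.175 CPM in Astro and 0.987 to 1.54 CPM in PAP. CPM here are counts over the library total, put on a common scale by TMM factors. Floors and intervals cover counting error only. The 8 astrocyte markers (Aldh1l1, Slc1a2, Slc1a3, Aqp4, Gja1, Gjb6, Gfap and Sox9) each had more than 3 counts in at least 1 library of both groups, with summed levels of 13600 to 20490 CPM in Astro and 2810 to 8719 CPM in PAP. With edgeR, 4 of the 8 were called lower in PAP, as were 15.4% of all genes tested, and none of them with the animal as a replicate block. In such bulk samples, fewer cells of a type and less RNA per cell cannot be told apart.

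Kinesins are motors that use ATP to walk along microtubules. Transport kinesins carry vesicles, mitochondria, endosomes and RNA granules, mostly toward the microtubule plus ends that lie in the outer parts of a cell, while mitotic kinesins build the spindle, align chromosomes and complete the division of the cell. Astrocyte processes hold microtubules along their main branches, whereas the thinnest perisynaptic leaflets hold few, and mRNAs of many kinds are carried into the processes and translated there. Adult astrocytes rarely divide, so that mitotic motors are usually low in them.

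Close relatives among kinesins can be hard to tell apart by short reads, which matters for Kifc1, a motor listed at 0. The kinesin-1 genes Kif5a and Kif5c are shown as a pair that can be told apart. The coding sequences below are 60 bases around the codons of the nucleotide-binding loop that all kinesin motor domains share, in capitals, 5′ to 3′ on the coding strand, from GENCODE M21 on GRCm38. Kifc1 (chr17:33883366-33883425, minus strand) and Kifc5b (chr17:26924462-26924521, plus strand) have the same letters there. Kif5a (chr10:127247622-127248083, minus strand) and Kif5c (chr2:49680185-49688658, plus strand) each span an intron in this stretch and differ from each other at 9 of the 60 bases.
Kifc1: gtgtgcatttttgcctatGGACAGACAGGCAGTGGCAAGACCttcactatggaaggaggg
Kifc5b: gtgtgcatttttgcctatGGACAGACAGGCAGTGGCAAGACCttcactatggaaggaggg
Kif5a: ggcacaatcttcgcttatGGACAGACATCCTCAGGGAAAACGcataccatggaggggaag
Kif5c: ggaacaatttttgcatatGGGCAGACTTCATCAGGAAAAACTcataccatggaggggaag
The longest run of identical bases was 268 between the coding sequences of Kifc1 and Kifc5b and 23 between those of Kif5a and Kif5c. Of all 50-base windows of the Kifc1 coding sequence, 54.7% were also found in another gene's transcripts, so that reads of Kifc1 and its relatives may be counted for another gene or for none, and its counts are uncertain. Of the windows of the Kif5a and Kif5c transcripts, 0 were found in another gene.

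Ribosome-bound transport kinesins took shares of the counts that overlapped between the compartments, and the motors that made up the share differed from one PAP library to the next. In Astro the 17 transport genes took 0.0814%, 0.0881% and 0.132% of all counts in animals 1, 2 and 3, and in PAP 0.0814%, 0.145% and 0.105%. The Wilson 95% intervals of these shares were narrow against the spread between animals, as for PAP of animal 2 (0.140% to 0.151%). The Astro mean was 0.1004% ± 0.0274 and the PAP mean 0.111% ± 0.0324 (SD, n = 3 each), and the groups overlapped. All 17 transport genes had more than 3 counts in every Astro library. In PAP, 6 of them did so in every library, 10 in 1 or 2 libraries and 1 (Kif16b) in none.

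Across the 43 kinesins, 32 passed the filter on low counts and were tested with edgeR's quasi-likelihood test, with Benjamini-Hochberg adjustment over all 14618 genes tested. None was called higher in PAP, where 5.92% of all genes tested were called higher, and 3 were called lower (Kif6, Kif9 and Kif16b), where 15.4% of all genes tested were called lower. At an unadjusted p under 0.05 there were 3 kinesins higher (Kif20b, Kif23 and Kif24), against 9.39% of all genes tested, and the same 3 lower, against 21.5%. The DESeq2 Wald test called 5 of the 32 higher, against 11.5% of all genes tested, and 5 lower, against 23.6%. The higher 5 by DESeq2 were Kif1c, Kif13b, Kif20a, Kif23 and Kif24, and the lower 5 were Kif3c, Kif6, Kif9, Kif16b and Kif28. Without any 1 of the Astro libraries 0 kinesins were called lower, as were 0.00773% to 0.0389% of all genes tested. Without PAP of animal 1, 2 or 3 there were 4, 6 and 6, against 19.6%, 17.8% and 20.2% of all genes tested. With the animal as a replicate block in the edgeR fit, as the same 3 animals gave both compartments, 0 kinesins passed and 0.91% of all genes tested did. PAP lay wholly below Astro for 8 of the 32 kinesins tested, against 35.1% of the genes tested, and wholly above for 3 (Kif20a, Kif20b and Kif24), against 10.9%. The median log2 fold change, PAP minus Astro, was 0.43 over the 32 kinesins tested and -0.53 over all genes tested. The sign of the kinesin median was not stable: it was -0.97 with the replicate block (-1.63 over all genes tested), -0.79 with voom (-1.62), -0.15 without PAP of animal 1 (-0.88) and -0.31 without PAP of animal 2 (-0.86), with the median over all genes tested in parentheses.

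**Figure D1:**
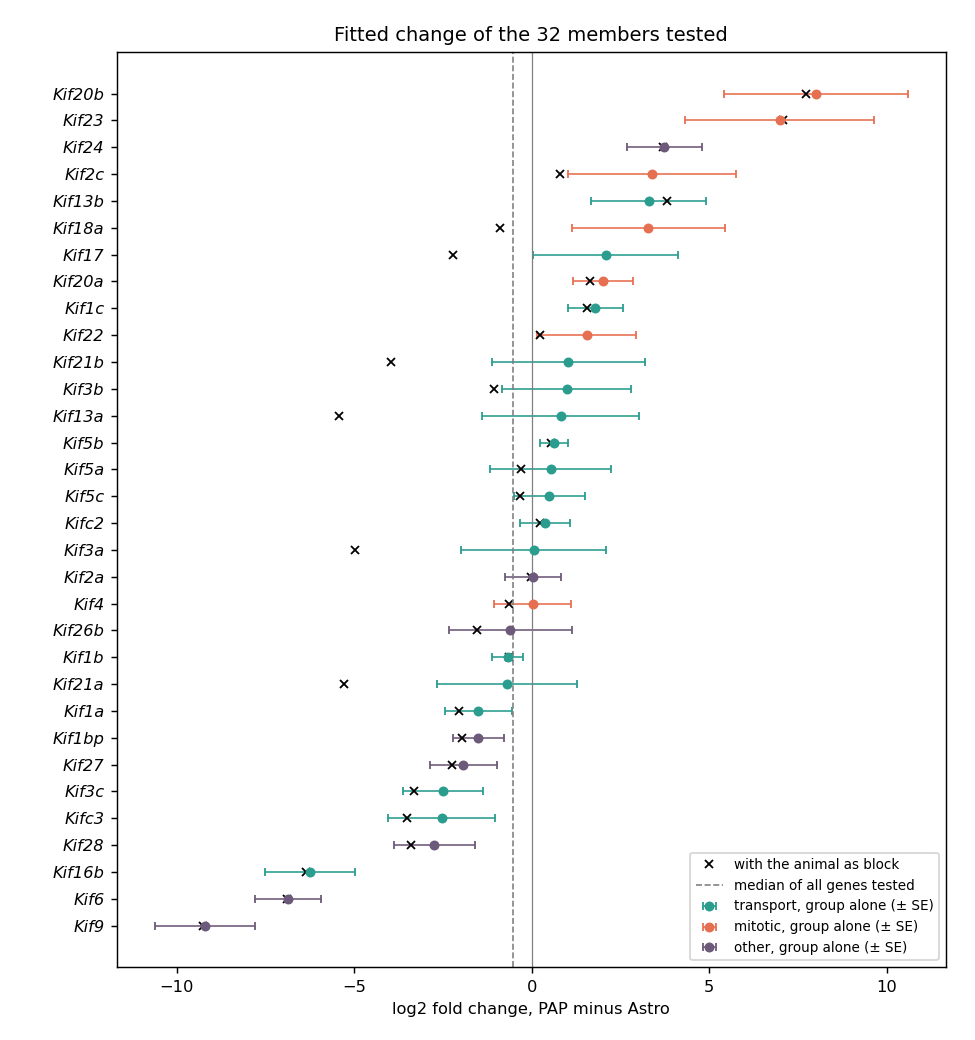
Fitted log2 fold change, PAP minus Astro, of the 32 members tested (points, coloured by class; bars, SE; crosses, fit with the animal as block; dashed line, median of all genes tested at -0.53). Kif9, Kif6 and Kif16b lie farthest to the left and Kif20b and Kif23 farthest to the right, while many transport genes lie near 0 with wide bars; the fitted values of Kif6, Kif9 and Kif16b depend on the prior count, since they were at the floor in PAP.

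Among the transport kinesins, the kinesin-1 heavy chains Kif5b and Kif5a had the highest mean levels in PAP, both in CPM and per kb, though per kb Kif3a was the highest transport gene in PAP of animal 1. Per kb of exonic length, Kif5b stood at 39.1 ± 16.1 CPM per kb (SD, n = 3) in PAP, first of all members, and Kif5a followed at 25.0 ± 30.3. Kif5b, the widely expressed kinesin-1 motor of mitochondria and vesicles, measured 171, 206 and 230 CPM in Astro of animals 1 to 3 and 166, 364 and 407 CPM in PAP. PAP was higher in animals 2 and 3 and at the Astro level in animal 1, and the log2 fold change was 0.62 ± 0.40 (SE, edgeR adjusted p = 0.381).

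Kif5a (ENSMUSG00000074657, GRCm38 chr10:127225696-127263348), a kinesin-1 motor known chiefly from neurons, measured 61.2, 124 and 177 CPM in Astro and 113, 410 and 0 CPM in PAP. The PAP library of animal 3 had no count of Kif5a, although that of animal 2 was the highest of all 6. The 800 counts in PAP of animal 2 were spread over all 8 technical replicates, with 84 to 114 counts in each. Kif5c, its close relative, was highest in PAP of animal 3, where Kif5a was at 0, with 12.7, 42.1 and 208 CPM, against 45.4, 55.2 and 86.7 CPM in Astro. Neither passed the test (edgeR adjusted p = 0.887 for Kif5a and 0.814 for Kif5c). The 3 kinesin-1 genes together made up 0.0370% ± 0.0124 of the Astro counts and 0.0603% ± 0.0278 of the PAP counts (SD, n = 3), with PAP above Astro within each of the 3 animals and the groups overlapping.

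The 8 neuron markers (Rbfox3, Snap25, Syt1, Camk2a, Slc17a7, Gad1, Stmn2 and Nefl) had more than 3 counts in at least 1 library of each group, and their summed level was 655 to 1165 CPM in Astro and 461 to 1328 CPM in PAP. Of these, Snap25 fell and Syt1 rose in PAP, neither with the replicate block, against 15.4% and 5.92% of all genes tested called lower and higher. The remaining 6 did not pass, and the list's median log2 fold change was -0.13. Their part in the kinesin-1 values was not tested.

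Kinesin-2 motors, which drive cilium building and carry vesicles as a dimer with an adaptor, varied from library to library in PAP. Kif3a measured 26.0, 29.1 and 47.4 CPM in Astro and 106, 0.513 and 0 CPM in PAP. Its partner Kif3b measured 19.1, 17.8 and 33.4 CPM in Astro and 11.2, 128 and 0 CPM in PAP. The high library was thus animal 1 for Kif3a and animal 2 for Kif3b, although both subunits form 1 motor. The adaptor of the pair, Kifap3, was above the floor in PAP of animal 2 alone, with 48.7 CPM against 0.508 and 0.329 in the others and 32.7 to 58.9 CPM in Astro.
Kif3c, which pairs with Kif3a and is known from neurons, measured 58.9, 67.3 and 72.8 CPM in Astro and 25.9, 1.03 and 8.22 CPM in PAP, wholly below Astro, with a log2 fold change of -2.50 ± 1.12 (SE, edgeR adjusted p = 0.193; 0.0434 with the DESeq2 Wald test), or -3.86 without PAP of animal 1 (0.0514). Antisense gene 1110002L01Rik covers 35.3% of its exonic length, and the libraries do not mark strand, so its counts are uncertain. None of the kinesin-2 genes passed the test, though Kif3a did so without PAP of animal 1, with a log2 fold change of -7.25 (edgeR adjusted p = 0.0247).

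In the kinesin-3 family of vesicle and endosome motors, 1 member fell in PAP. Kif16b (ENSMUSG00000038844, GRCm38 chr2:142617474-142901531), which moves early endosomes, measured 17.6, 28.9 and 20.4 CPM in Astro, from 330 to 495 counts. In PAP it had 1, 0 and 1 counts, which are all under the floor. Against a floor of 3 counts per PAP library, its mean level in PAP was lower than the Astro mean by at least 16.5-fold. This bounds the means and not each animal. It was lower in 3 of 3 animals (edgeR adjusted p = 0.0208, or 0.206 with the replicate block). Thinned to the depth of the smallest library, the Astro libraries still held 30, 51 and 47 counts of it. The call was lost without any 1 of the 3 Astro libraries, with adjusted p of 0.0886 to 0.0968.
Kif1a, the motor of synaptic vesicle precursors and dense-core vesicles, measured 64.7, 81.2 and 132 CPM in Astro and 26.4, 4.62 and 67.1 CPM in PAP, lower in 3 of 3 animals with overlapping groups (log2 fold change -1.501 ± 0.95, edgeR adjusted p = 0.372). The change of Kif1a was -2.64 without PAP of animal 3 (edgeR adjusted p = 0.0878) and -1.05 without PAP of animal 2 (0.272). Kif1b, which carries mitochondria and synaptic vesicle precursors in its different forms, was the steadiest transport gene in PAP, with 113, 76.9 and 72.0 CPM against 137, 93.2 and 190 CPM in Astro (log2 fold change -0.68 ± 0.44, edgeR adjusted p = 0.384). Kif1c, a motor of vesicles and RNA, measured 15.3, 22.9 and 15.3 CPM in Astro and 59.9, 102 and 22.0 CPM in PAP. Kif1c was higher in PAP within each of the 3 animals, by 1.78 ± 0.77 on the log2 scale, and did not pass (edgeR adjusted p = 0.181; 0.0380 without PAP of animal 3 and 0.0236 with the DESeq2 Wald test). Without PAP of animal 2 the change was 1.14 (edgeR adjusted p = 0.262), and with the replicate block 1.56 (0.443). The groups overlapped only through animal 2 of Astro and animal 3 of PAP.

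The remaining transport kinesins also varied by library. Kif21a, which acts on microtubule growth as well as transport, had 24.7, 30.0 and 42.0 CPM in Astro and 0, 59.5 and 0.329 CPM in PAP. It did not pass with all libraries, and without PAP of animal 2 its log2 fold change was -7.39 (edgeR adjusted p = 0.0227). Kifc3, a minus-end directed motor, was among the highest in Astro, at 182, 118 and 130 CPM, and gave 31.5, 42.6 and 0 CPM in PAP. PAP lay wholly below Astro for Kifc3, with a log2 fold change of -2.54 ± 1.5 (edgeR adjusted p = 0.333; 0.0250 without PAP of animal 3). Kifc2, another minus-end directed motor, had overlapping groups, with 30.8, 46.0 and 72.2 CPM in Astro and 24.4, 95.4 and 71.4 CPM in PAP (edgeR adjusted p = 0.805). The 4 transport genes not named with a test here, Kif13a, Kif13b, Kif17 and Kif21b, had Astro levels of 0.214 to 32.8 CPM, and none passed with all libraries in edgeR. Kif13a was called lower without PAP of animal 3, Kif21b lower without PAP of animal 2 and Kif13b higher by the DESeq2 Wald test.

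**Figure D2:**
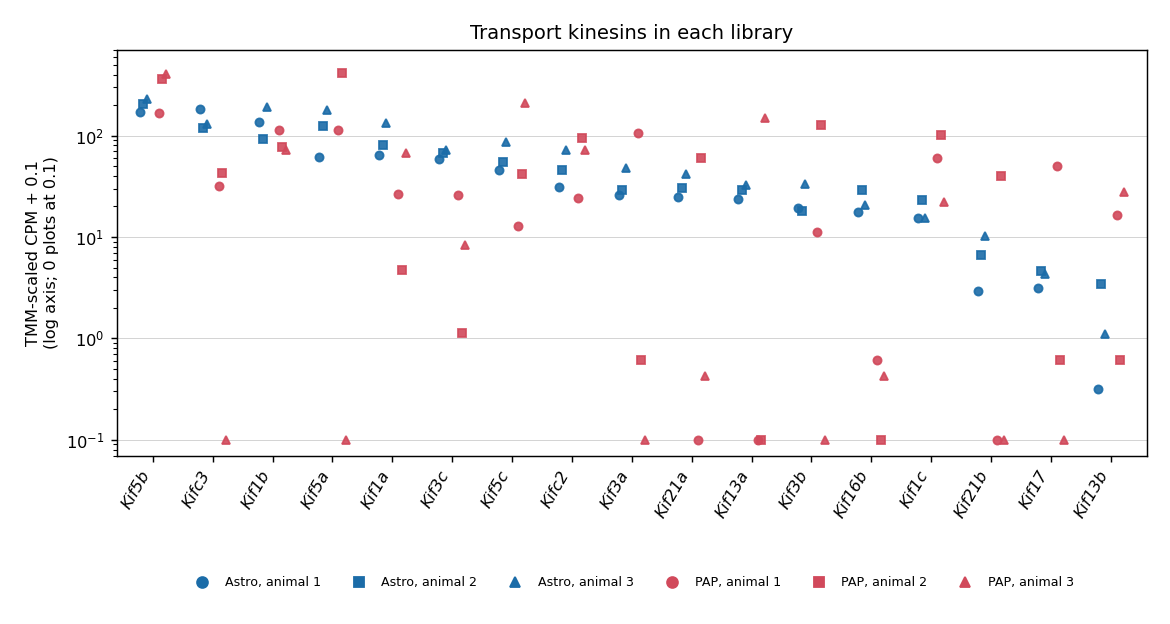
Level of each of the 17 transport kinesins in each library (log axis of CPM + 0.1, so that 0 plots at 0.1; blue, Astro; red, PAP; symbols, animals), in falling order of the Astro mean. Astro libraries cluster for most genes, while PAP libraries of Kif5a, Kif3a, Kif3b, Kif21a and Kif13a run from near or at 0 to above the Astro values.

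Ranked per kb of exonic length in Astro, the members ran from Kif1bp (47.3 ± 3.98 CPM per kb, SD, n = 3) through Kifc3 (27.0 ± 6.41), Kif5b (25.4 ± 3.77), Kif5a (17.3 ± 8.31) and Kifc2 (12.6) to Kif1a (9.945) and Kif3a (9.53). Kif1bp stood above Kifc3 beyond their SDs, while Kifc3, Kif5b, Kif5a and Kifc2 did not differ, each from the next, beyond theirs. In PAP the order was Kif5b (39.1), Kif5a (25.0), Kif1bp (16.6 ± 15.6), Kifc2 (16.2), Kif20a (14.6 ± 12.6), Kif5c (12.3), Kif3a (9.91) and Kif1c (8.43), and no neighbours in it differed beyond their SDs. Kif1bp, the highest in Astro, measured 246, 210 and 239 CPM in Astro and 51.8, 24.1 and 168 CPM in PAP, wholly below. Its log2 fold change was -1.51 ± 0.71 (edgeR adjusted p = 0.218), and -2.67 without PAP of animal 3 (0.0194).

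At matched depth, with each library thinned to 1829962 counts, Astro libraries held 24 to 26 kinesins above 3 counts and PAP libraries 18 to 24. For 7 of the 43 members, 16.3%, at least 1 PAP library had at most 3 counts and another at least 100 (Kif13a, Kif18a, Kif21a, Kif23, Kif3a, Kif3b and Kif5a), against 13.98% of all genes tested (2043 of 14618). All 7 were among the 32 kinesins tested, of which they made up 21.9%. No gene tested did so in Astro. Kif13a, an endosome motor, had 0, 0 and 149 CPM in PAP and 23.4, 28.7 and 32.8 CPM in Astro. Its 453 counts in PAP of animal 3 came from all 8 technical replicates, 47 to 67 in each, and likewise the high libraries of the other 6 had counts in 8 of 8 technical replicates. The technical replicates share the amplification of 1 RNA sample, so they do not show how much of the spread arose before sequencing.

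Mitotic kinesins took a small share of counts, with 4 of the 12 above the floor in every Astro library (Kif4, Kif18a, Kif20a and Kif22) and 2 in every PAP library (Kif20a and Kif20b). The 12 genes took 0.00379%, 0.00285% and 0.00381% of counts in Astro and 0.0417%, 0.00556% and 0.0257% in PAP. The lowest PAP share had a Wilson 95% interval of 0.00458% to 0.00675% and the highest Astro share one of 0.00354% to 0.00409%, so the groups did not overlap. The means were 0.00348% ± 0.00055 and 0.0243% ± 0.0181 (SD, n = 3). Without Kif4 and Kif20a, whose exons overlap other genes (below), PAP of animal 2 came to 0.000873%, within the Astro range of 0.000732% to 0.00135%, so the separation rests on these genes in that animal.
Of the 12, 7 passed the filter and none passed the test. Their median log2 fold change was 3.28, with all 7 above 0 and values from 0.02 to 8.00, and it was 0.80 with the replicate block. Kif20b, at 6, 0 and 0 counts in Astro, entered the test only through PAP, and Kif23, at 21, 0 and 1, mainly so. These genes could hardly have shown a fall. The remaining 5 were too low to test, among them Kif11, with 59 counts in Astro of animal 1 and 0 in every PAP library. Neither the median nor the 7 signs thus describe the class.

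Kif20b and Kif23, which act in the last steps of cytokinesis, had the largest fitted changes of the mitotic class. Kif20b had 0.321, 0 and 0 CPM in Astro and 2.54, 3.59 and 85.2 CPM in PAP, all above Astro and 1 far above the others (log2 fold change 8.00 ± 2.59, edgeR adjusted p = 0.0795). Kif23 had 1.12, 0 and 0.0505 CPM in Astro and 137, 0.513 and 14.8 CPM in PAP (log2 fold change 6.98 ± 2.66, edgeR adjusted p = 0.128; 0.00191 with the DESeq2 Wald test). Its PAP library of animal 2 was under the floor, so the groups overlapped. Both sizes rest on single libraries: Kif20b came to 4.64 without PAP of animal 3 and 11.05 without Astro of animal 1, and Kif23 to 4.22 without PAP of animal 1 and 10.31 without Astro of animal 1, and neither passed in any of these.
Kif20a, needed for the same stage of division, measured 16.9, 13.6 and 16.8 CPM in Astro and 44.2, 21.0 and 125 CPM in PAP, wholly above (log2 fold change 2.01 ± 0.84, edgeR adjusted p = 0.164; 0.0457 without PAP of animal 2 and 0.0179 with the DESeq2 Wald test). Without PAP of animal 3 the change was 0.98 (edgeR adjusted p = 0.268), and with the replicate block 1.63 (0.443). Exons of Cdc23 on the opposite strand cover 29.3% of the Kif20a exonic length (1271 bases), and Cdc23 is expressed in every library, with 1070 to 1634 counts in Astro and 197 to 235 in PAP. Counts of Kif20a, the highest of the mitotic class in Astro, are thus uncertain in both groups.

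Kif18a, which damps chromosome movements at the metaphase plate, stood at a steady 5.08, 5.55 and 4.90 CPM in Astro and at 149, 0 and 1.97 CPM in PAP. Its level in Astro was above the floor in 3 of 3 libraries, which no other mitotic gene apart from Kif4, Kif20a and Kif22 reached. The log2 fold change was 3.28 ± 2.15 (edgeR adjusted p = 0.389), and it rests on PAP of animal 1, without which it was -2.31. Kif4, a chromokinesin, varied around the Astro level in PAP and did not pass, at 9.52, 9.58 and 13.2 CPM in Astro and 1.52, 23.1 and 8.22 CPM in PAP (edgeR adjusted p = 0.995). Pdzd11 on the opposite strand shares 832 bases, 15.1% of its exonic length.
Kif22, which binds chromosome arms, had 1.72 to 2.35 CPM in Astro and 0, 3.08 and 15.5 CPM in PAP. Kif2c, which takes microtubules apart at kinetochores, had 1.28, 0 and 0.909 CPM in Astro and 23.4, 0 and 0 CPM in PAP. Neither passed (edgeR adjusted p = 0.548 and 0.425).

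The 5 mitotic members that were not tested were mostly undetected. Kif18b had 12, 0 and 0 counts in Astro and 55, 2 and 0 counts in PAP. Kif15 had at most 14 counts in any library. Kif11, the plus-end motor that pushes spindle poles apart, had 59 counts in Astro of animal 1 and 0 in the other 5 libraries. Kif14 had 0 counts in all 6 libraries, which allows up to 0.152 to 0.175 CPM in Astro and 0.987 to 1.54 CPM in PAP. Kifc1 also had 0 counts in all 6, with the shared sequence printed above, and its near copy Kifc5b had 2 counts in Astro of animal 1 and 15 in PAP of animal 1 and 0 elsewhere.

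**Figure D3:**
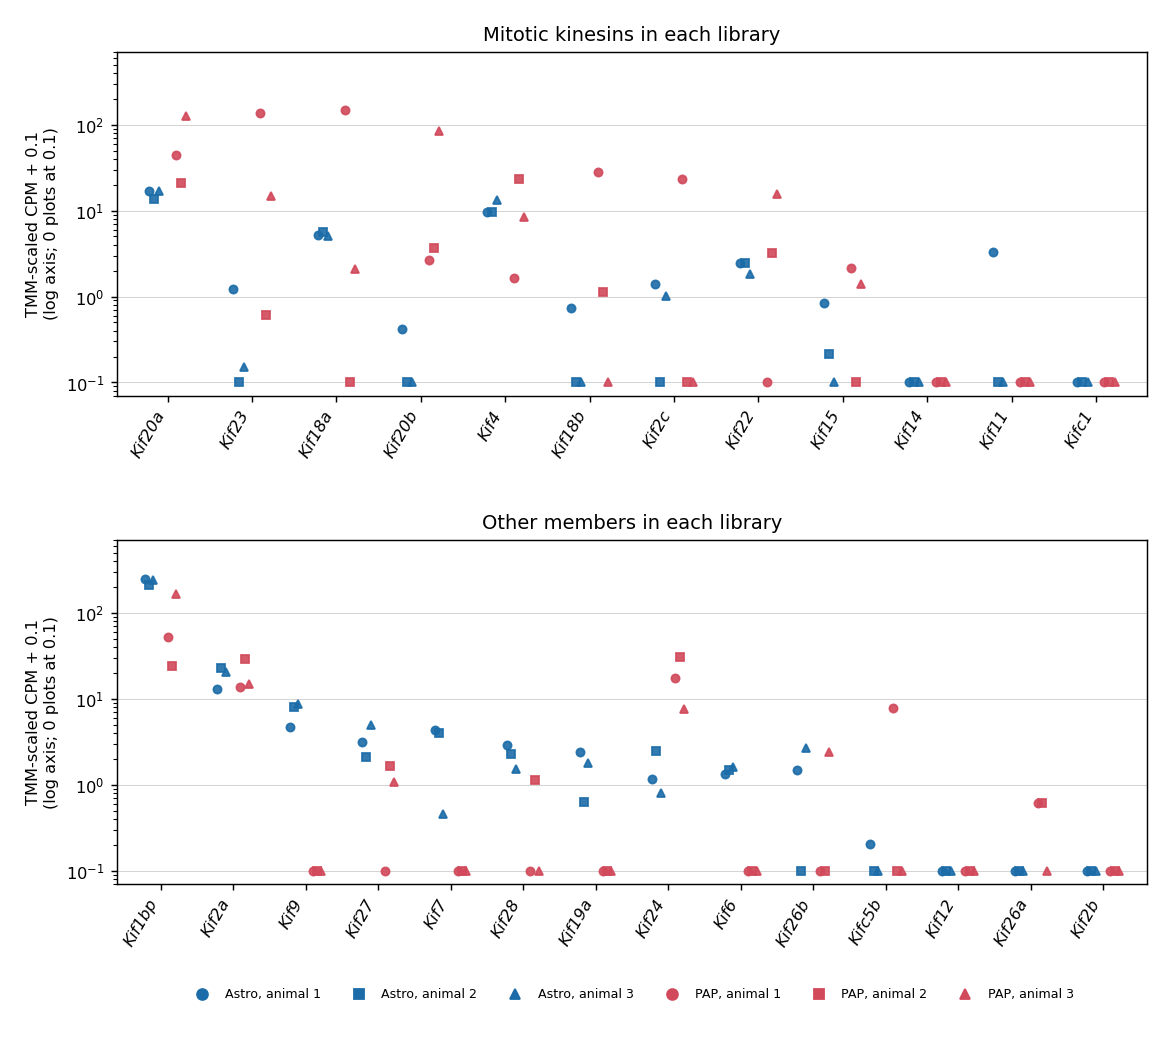
Level of the 12 mitotic kinesins (upper panel, in falling order of the PAP mean) and of the 14 other members (lower panel, in falling order of the Astro mean) in each library, on a log axis of CPM + 0.1, with groups in colour and animals by symbol. The highest PAP values of Kif23 and Kif18a come from animal 1 and those of Kif20a and Kif20b from animal 3, while Kif6, Kif7, Kif9 and Kif19a are listed at 0 in all PAP libraries.

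Among other genes of cell division, some were called higher in PAP. The 19 genes below summed to 20.3 to 38.0 CPM in Astro, against a PAP floor of 0.987 to 1.54 CPM for each. A fall could thus hardly have been called. Of 19 spindle and mitosis genes (Cenpe, Mki67, Top2a, Cdk1, Ccnb1, Ccnb2, Aurka, Aurkb, Plk1, Bub1, Bub1b, Ttk, Tpx2, Incenp, Birc5, Prc1, Nusap1, Racgap1 and Ect2), 14 were tested, 5 rose (Top2a, Plk1, Bub1b, Tpx2 and Birc5), where 5.92% of all genes tested were called higher. The median log2 fold change of the 14 was 4.64. Neither this median nor the 5 of 14 describes the list of 19. Top2a and Plk1, at 4 to 14 and 2 to 21 counts in Astro, entered the test through PAP, where they are high. The 5 not tested include Bub1, at 0 counts in all PAP libraries. With the replicate block none of the 14 passed, and 0.91% of all genes tested did. Birc5, a part of the complex that guides chromosome segregation, went from 2.73, 1.23 and 1.77 CPM in Astro to 204, 110 and 84.8 CPM in PAP (log2 fold change 6.11 ± 0.73, edgeR adjusted p = 0.01001; 0.0685 with the replicate block). Top2a, which untangles DNA before division, went from 0.374, 0.818 and 0.202 to 100, 50.8 and 66.4 CPM (edgeR adjusted p = 0.0165; 0.151 with the replicate block). Cenpe, itself a kinesin by sequence but outside the symbol rule, had 9.65, 0 and 255 CPM in PAP and at most 0.525 CPM in Astro, and did not pass the filter.

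Markers of other cells were read beside the mitotic genes. The 5 dividing-cell markers (Mki67, Top2a, Cdk1, Ccnb1 and Birc5, all 5 also in the list of mitosis genes) summed to 3.64 to 7.27 CPM in Astro and 213 to 404 CPM in PAP. Among genes of the B lineage, Igkc, an immunoglobulin light chain, went from 20.2 to 25.7 CPM in Astro to 2605, 1732 and 1245 CPM in PAP (edgeR adjusted p = 0.00196; 0.0151 with the replicate block). Jchain, which joins secreted immunoglobulins, went from 10.9 to 20.3 CPM to 2503, 1196 and 1093 CPM (edgeR adjusted p = 0.00248; 0.0151 with the replicate block). Ms4a1 rose and Ighm fell without the block, and Ighm was at 0 in all 3 PAP libraries. Cd79a was under the floor in all 6 libraries, and Cd79b had 0 to 0.641 CPM in Astro and 41.1, 13.9 and 1.97 CPM in PAP and did not pass (edgeR adjusted p = 0.0842). The haemoglobin gene Hba-a1, from red blood cells, had 2.57 to 3.53 CPM in Astro and 79.7, 8.21 and 2.63 CPM in PAP, and did not pass (edgeR adjusted p = 0.186). The part of these markers in the mitotic values was not tested.

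**Figure D4:**
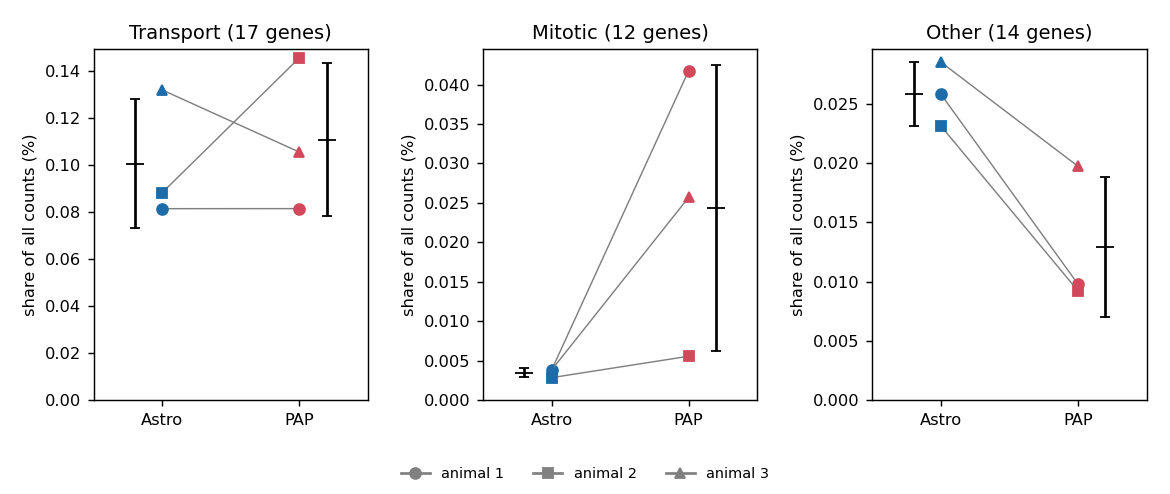
Share of all counts (%) taken by the transport, mitotic and other members in each library, with lines joining Astro and PAP of the same animal and, beside them, mean ± SD (n = 3; each panel has its own axis from 0). The mitotic share is higher in PAP in 3 of 3 animals (0.00556% to 0.0417% against 0.00285% to 0.00381%), the other share is lower in 3 of 3, and the transport share is mixed.

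The share of the other members was 0.0258% ± 0.00269 in the Astro libraries and 0.0129% ± 0.00591 in the PAP libraries (SD, n = 3). Most of this was Kif1bp: without it the shares were 0.00377% ± 0.000623 and 0.00449% ± 0.00203, and the groups overlapped. Of the 14, 8 were tested, 2 fell and none rose (15.4% and 5.92% over all genes tested), and the median log2 fold change was -1.72.

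The 2 that fell, Kif9 and Kif6, are motors of motile cilia and flagella. Kif9 (ENSMUSG00000032489, GRCm38 chr9:110476958-110525179) measured 4.54, 8.00 and 8.64 CPM in Astro, from 85, 137 and 171 counts, and had 0 counts in all 3 PAP libraries. Against the same floor, its mean level in PAP was lower than the Astro mean by at least 5.23-fold, again a bound on the means alone. The edgeR adjusted p was 0.0208, or 0.206 with the replicate block, and 0.0686 to 0.0864 without any 1 Astro library. Kif6 (ENSMUSG00000023999, GRCm38 chr17:49615136-49909847) measured 1.23, 1.40 and 1.52 CPM in Astro and had 0 counts in PAP (edgeR adjusted p = 0.0208; 0.206 with the replicate block). Since PAP libraries were shallow, the mean Astro level was only 1.02 times the mean PAP floor, and at matched depth Astro held 0, 5 and 3 counts of Kif6, so that its difference is hardly within reach of this depth. Kif6 no longer passed the filter without any 1 Astro library, and without the filter its adjusted p was 0.0656.

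Besides Kif6 and Kif9, 7 of the other members were at or under the floor in every PAP library, of which Kif12, Kif2b and Kif26a were so in Astro too. Kif7 and Kif19a, which act at the tip of the cilium, had 0 counts in PAP, against 0.354 to 4.22 CPM and 0.525 to 2.30 CPM in Astro. Since 1 Astro library of each was under the PAP floor, no fold is given. Kif27, a gene of motile cilia, had 1.98 to 4.799 CPM in Astro and Kif28 1.41 to 2.78 CPM, with at most 1.54 and 1.03 CPM in PAP. Kif7 and Kif19a did not pass the filter, and neither Kif27 nor Kif28 passed the test (edgeR adjusted p = 0.234 and 0.163), though Kif28 was called lower by the DESeq2 Wald test and without PAP of animal 2. The 4 ependymal markers (Foxj1, Tmem212, Ccdc153 and Dnah11), from the ciliated cells that line the ventricles, summed to 23.5 to 33.6 CPM in Astro and 0 to 1.54 CPM in PAP. All 4 were at or under 3 counts in every PAP library, and Foxj1, Tmem212 and Ccdc153 fell in PAP, where 15.4% of all genes tested were called lower, none of them with the replicate block. Their part in the values of Kif6 and Kif9 was not tested.

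Kif24, which trims microtubules at the centriole and holds back cilium growth, was the one other member wholly above Astro in PAP. It measured 1.07, 2.39 and 0.707 CPM in Astro and 17.3, 30.8 and 7.56 CPM in PAP (log2 fold change 3.72 ± 1.06, edgeR adjusted p = 0.0518; 0.273 with the replicate block). It was called higher by the DESeq2 Wald test and without PAP of animal 1 and without PAP of animal 3. Kif2a, a relative that takes microtubules apart in neurons and dividing cells, did not pass, with 12.8 to 22.8 CPM in Astro and 13.7 to 28.7 CPM in PAP (edgeR adjusted p = 0.991), though Dimt1 overlaps 19.2% of its exonic length. Kif12 and Kif2b had 0 counts in all 6 libraries. Both these genes and Kif13a, Kif26a, Kifc5b, Kif7, Kif19a, Kif24, Kif27, Kif28 and Kif2a lie outside the rule for named genes and were chosen after their values were seen.

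Adaptors and light chains couple kinesins to their loads. Of 20 partners (Klc1 to Klc4, Kifap3, Kif1bp, Trak1, Trak2, Rhot1, Rhot2, Mapk8ip1 to Mapk8ip3, Hap1, Fez1, Fez2, Zfyve27, Arl8a, Arl8b and Plekhm2), all 20 were tested, 1 rose and 3 fell (5.92% and 15.4% over all genes tested), with a median log2 fold change of -1.12 against -0.53 over all genes tested. Trak2, which links kinesin-1 to mitochondria, rose from 57.5, 93.5 and 93.7 CPM in Astro to 467, 546 and 305 CPM in PAP (log2 fold change 2.43 ± 0.38, edgeR adjusted p = 0.0208; 0.140 with the replicate block), with no overlap. Its relative Trak1 was at 113 to 150 CPM in Astro and 11.2 to 51.8 CPM in PAP and did not pass (edgeR adjusted p = 0.107). The kinesin-1 light chains Klc2 and Klc4 fell to at most 1 count in any PAP library, from 5.31 to 10.1 CPM and 24.4 to 30.9 CPM in Astro. Klc1, the highest light chain, had 109 to 158 CPM in Astro and 18.8 to 134 CPM in PAP. Klc3 lay wholly above Astro in PAP, at 28.2 to 35.0 CPM against 9.19 to 12.4 CPM. Neither passed (edgeR adjusted p = 0.461 for Klc1 and 0.214 for Klc3). Arl8a, which joins lysosomes to kinesin-1, fell from 267 to 332 CPM to 76.9 to 119 CPM (log2 fold change -1.502 ± 0.32, edgeR adjusted p = 0.0223; 0.206 with the replicate block).

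Dynein, the motor that runs toward the cell centre, and its activator dynactin were read for comparison. Of 21 genes of the complex and its regulators (Dync1h1, Dync1i1, Dync1i2, Dync1li1, Dync1li2, Dynll1, Dynll2, Dynlrb1, Dctn1 to Dctn6, Actr1a, Actr10, Pafah1b1, Nde1, Ndel1, Bicd1 and Bicd2), all tested, 1 rose and 2 fell, where 5.92% of all genes tested were called higher and 15.4% lower. Their median log2 fold change was -1.53, against -0.53 over all genes tested. Dynll2, a light chain, rose from 50.5 to 60.9 CPM to 131 to 207 CPM (log2 fold change 1.56 ± 0.39, edgeR adjusted p = 0.0326; 0.208 with the replicate block). Dync1i1, an intermediate chain, and Nde1, a dynein regulator, fell, the former to 0 counts in all 3 PAP libraries from 8.55 to 17.5 CPM in Astro. With the replicate block no gene of the partner or dynein lists passed.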

How the data were processed

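The authors deposited raw counts, 1 whole number per Ensembl gene in each of 48 files with no scaling (per the file headers and values). Per the submitters' processing notes, bcl2fastq 2.18.0.12, Trim Galore 0.4.1, STAR 2.5.2b, SAMtools, HTSeq 0.5.3 and the build mm10 were named, with no annotation or strand setting. Per the labels' protocols, 10 ng of RNA were amplified (SMART-Seq v4) and made into Nextera XT libraries, which do not mark strand.

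Counts were summed over the 8 technical replicates. Symbols and exonic lengths came from GENCODE M21 (GRCm38), which held 99.12% of the IDs and 99.9% of the counts. Genes passing filterByExpr (minimum count 10) entered the fit in edgeR 4.0.16, R 4.3.3 (TMM, group alone, quasi-likelihood, prior count 0.125, threshold 0.05). The SE is the log2 fold change over the square root of F. Shares are given without a p, since 3 against 3 allows no exact p under 0.1. Libraries of 1 animal share its number, which pairs them; their deviations correlated at 0.008 on average, against -0.004 between animals.

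Named genes are the members called, the 12 highest in Astro and 8 highest in PAP per kb, and the 12 mitotic members. Members, lists and rule were chosen with earlier results of these data known. Alternatives were the replicate block, DESeq2 1.42.0 size factors or Wald test, library size alone, no filter, voom (limma 3.58.1), thinning, technical replicates 1 to 4 or 5 to 8 alone and leaving out each library. The fits were tested on simulated data. Some genes of the marker lists, and the list values that need them, are not reported here.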

Additional observations from a re-analysis of the deposited data

How the results depend on the processing

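The 0 kinesins called higher in PAP became 1 with library size alone (Kif24), 1 with technical replicates 1 to 4 (Kif20b), 1 with technical replicates 5 to 8 (Kif24), 5 with the DESeq2 Wald test and 0 to 2 on leaving out 1 library, while the share of all genes tested called higher went from 5.92% to 6.36%, 5.95%, 5.84%, 11.5% and 0.881% to 7.57%. The 3 called lower became 0 with the replicate block, 5 with the DESeq2 Wald test and 0 to 6 on leaving out 1 library, while that of all genes called lower went from 15.4% to 0.0342%, 23.6% and 0.00773% to 20.2%. The cause was not tested. The transport share difference turned to -0.00704 percentage points without PAP of animal 2 (-0.00704 to 0.0260 on leaving out 1 library), and the other share difference to 0.000718 without Kif1bp, an alternative chosen after seeing the data.
Of 23 named kinesins with a fitted change, 14 kept their sign in every fit they entered, of 15. None of the 9 others passed with all libraries and group alone. With the replicate block (paired by animal) Kif18a came to -0.88, Kif3a to -4.97, Kif3b to -1.05, Kif4 to -0.65, Kif5a to -0.30 and Kif5c to -0.32. With voom, Kif18a came to -0.20, Kif22 to -0.02, Kif3a to -3.59, Kif3b to -1.60, Kif4 to -0.62, Kif5a to -2.53 and Kif5c to -0.09. Without the filter Kif3a came to -0.12 and Kif4 to -0.15. With technical replicates 1 to 4 Kif4 came to -8.4e-05, and with 5 to 8 Kif4 to -0.06 and Kif3a to -0.09. Leaving out 1 library gave Kif18a -2.31 to 3.8, Kif22 -0.54 to 2.08, Kif2c -6.18 to 3.91, Kif3a -7.25 to 0.58, Kif3b -2.15 to 1.5, Kif4 -1.18 to 0.50, Kif5a -1.16 to 1.05, Kif5c -1.26 to 0.96 and Kifc2 -0.11 to 0.75.
The transport median changed sign too, from 0.49 to -2.04 with the block, -2.09 with voom and -0.66 without PAP of animal 2. Scaling by library size alone moved the median of all genes tested from -0.53 to -0.38. The shallow PAP libraries, with 3 counts at 0.987 to 1.54 CPM, limit what can be said of mitotic and ciliary members.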

Other observations

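Among genes of microglia, Cx3cr1, P2ry12 and Tmem119 fell in PAP, to 0 counts in all 3 libraries (edgeR adjusted p = 0.0247, 0.0281 and 0.0222; none passed with the replicate block). Of 5 endothelial markers (Cldn5, Pecam1, Flt1, Cdh5 and Ly6c1), 4 were at most at 3 counts in every PAP library, and the list summed to 4.44 to 5.05 CPM in Astro and 4.10 to 24.4 CPM in PAP.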
